A study of Macaca mulatta with 304 samples.

Results

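The 7 genes C15H9orf78, JADE2, AKAP2, BZW2, PTP4A3, PLXNA2 and ARID5B were followed in the whole blood of rhesus macaques from 2 days before thoracic irradiation to Day 270 after it. They are 7 of the 21070 genes in the count table, and all 7 were among the 13751 genes tested. They come from the study's modelling of dose, an elastic net and a decision tree that sorted unirradiated, lower dose and higher dose blood, with blood drawn before irradiation and on Day 3 to 21 as the training set. Values from the control samples and Day 3 to 21 therefore chose these genes and are given as description. The few fits that use control samples, which compare the dose groups before irradiation or the change from an animal's own control, are not independent of that choice. The other tests use samples taken after Day 21. These came from the same animals, and the study used them to evaluate its model. The comparisons of the dose groups after Day 21 are therefore not independent of the choice either. Whether later samples entered an earlier step of the gene selection is not given in the sources used here.

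The series holds RNA-seq of whole blood from 28 Chinese sub-strain rhesus macaques, 14 females and 14 males, aged 3 to 5 years per the study's methods. The lower dose group (LD, 12 animals) received 9.8 Gy and the higher dose group (HD, 16 animals) 10.7 Gy of photons to the thorax from a linear accelerator. The control sample of an animal was drawn 2 days before its irradiation, and 4 HD animals have no control sample here. All animals were given an opioid for pain in the first weeks, those with fast breathing were treated with dexamethasone, and animals that met euthanasia criteria left the study. There are 24 control samples and 148 samples after Day 21, and the rest were drawn on Day 3 to 21. LD was represented by 12 animals to Day 90, by 11 at Day 120, by 8 at Day 150 and by 5 from Day 180 to 270. HD was represented by 16 animals on Day 30, by 12 each on Day 40 and Day 60, and by 5 and 3 at Day 90 and Day 120. From Day 150 on, HD was a single animal, B2502. Some HD animals without a Day 40 sample were sampled on Day 60, so the animals of these days differ. From Day 60 on, the days hold a smaller and selected set of animals. Each change over time was therefore computed within the animals sampled on both days.

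Whole blood RNA is a mixture of RNA from red cell precursors, platelets, neutrophils, monocytes and lymphocytes. Irradiation depletes lymphocytes, B cells most readily, and the number of young red cells in blood moves with marrow output. In such bulk samples, fewer cells of a type and less RNA per cell cannot be told apart. The 7 genes act at different points of the cell. PLXNA2 encodes a plexin, a membrane receptor for semaphorins, which are guidance signals for migrating cells. AKAP2 encodes an A-kinase anchoring protein, which holds protein kinase A at chosen sites in the cell, and PTP4A3 encodes PRL-3, a phosphatase of the phosphatase of regenerating liver family. Another 3 of the genes act in the nucleus. C15H9orf78, the macaque counterpart of human C9orf78, encodes a protein associated with the spliceosome. JADE2 encodes a PHD finger protein of the HBO1 histone acetyltransferase complex, and ARID5B encodes a DNA-binding protein that works with the histone demethylase PHF2. BZW2 encodes an eIF5 mimic protein that regulates the start of translation.

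In the Mmul_10 annotation, PLXNA2 (gene ID 713800) is at chr1:65517022-65739058 on the minus strand and BZW2 (714627) at chr3:98295581-98355773 on the minus strand. JADE2 (713338) is at chr6:131986624-132045049 on the plus strand, and PTP4A3 (693703) at chr8:141628336-141672158 on the plus strand. ARID5B (698639) is at chr9:75885648-76079676 on the minus strand. C15H9orf78 (716542) lies at chr15:10682010-10689468 on the plus strand and AKAP2 (709841) at chr15:32733694-32855261 on the minus strand. All are protein-coding, and reads were counted over exons, from 9 exonic blocks in C15H9orf78 to 32 in PLXNA2. JADE2 and PTP4A3 are overlapped by the antisense genes LOC114679134 and LOC106999970. The strand setting of the counting is not given in the sources used here, so reads of these gene pairs cannot be told apart.

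Libraries held 2840219 to 23638161 counts, with a median of 8227563. PLXNA2 had the fewest reads of the 7, 5 to 571 per sample with a median of 74.5. PTP4A3 followed with 8 to 2768. The other 5 genes had medians between 427.5 (AKAP2) and 2328 (JADE2) reads. Control libraries were mostly from a library series (A, 20 of 24) that no sample after Day 21 shares (26 in series B, the others in C), so the step from control to a later day cannot be told apart from the series in 20 of the 24 animals with a control. All Day 30 libraries were of series C. Part of the libraries of Day 40, 60, 90, 120, 240 and 270 were of series B. Day and library series are thus partly confounded in the changes from Day 30 to those days. The listed markers of blood cell types were all in the table except TRAT1, FCN1 and PF4, and none was at 0 in every sample. A single library stood apart. In the HD animal B2007 on Day 40, the summed erythroid and platelet markers were the highest of all samples (331565 and 30418 CPM) and the summed T cell and cytotoxic lymphocyte markers were the lowest (138.2 and 282.0 CPM). CPM is the count scaled to 1e6 reads after upper quartile scaling.

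**Figure D1:**
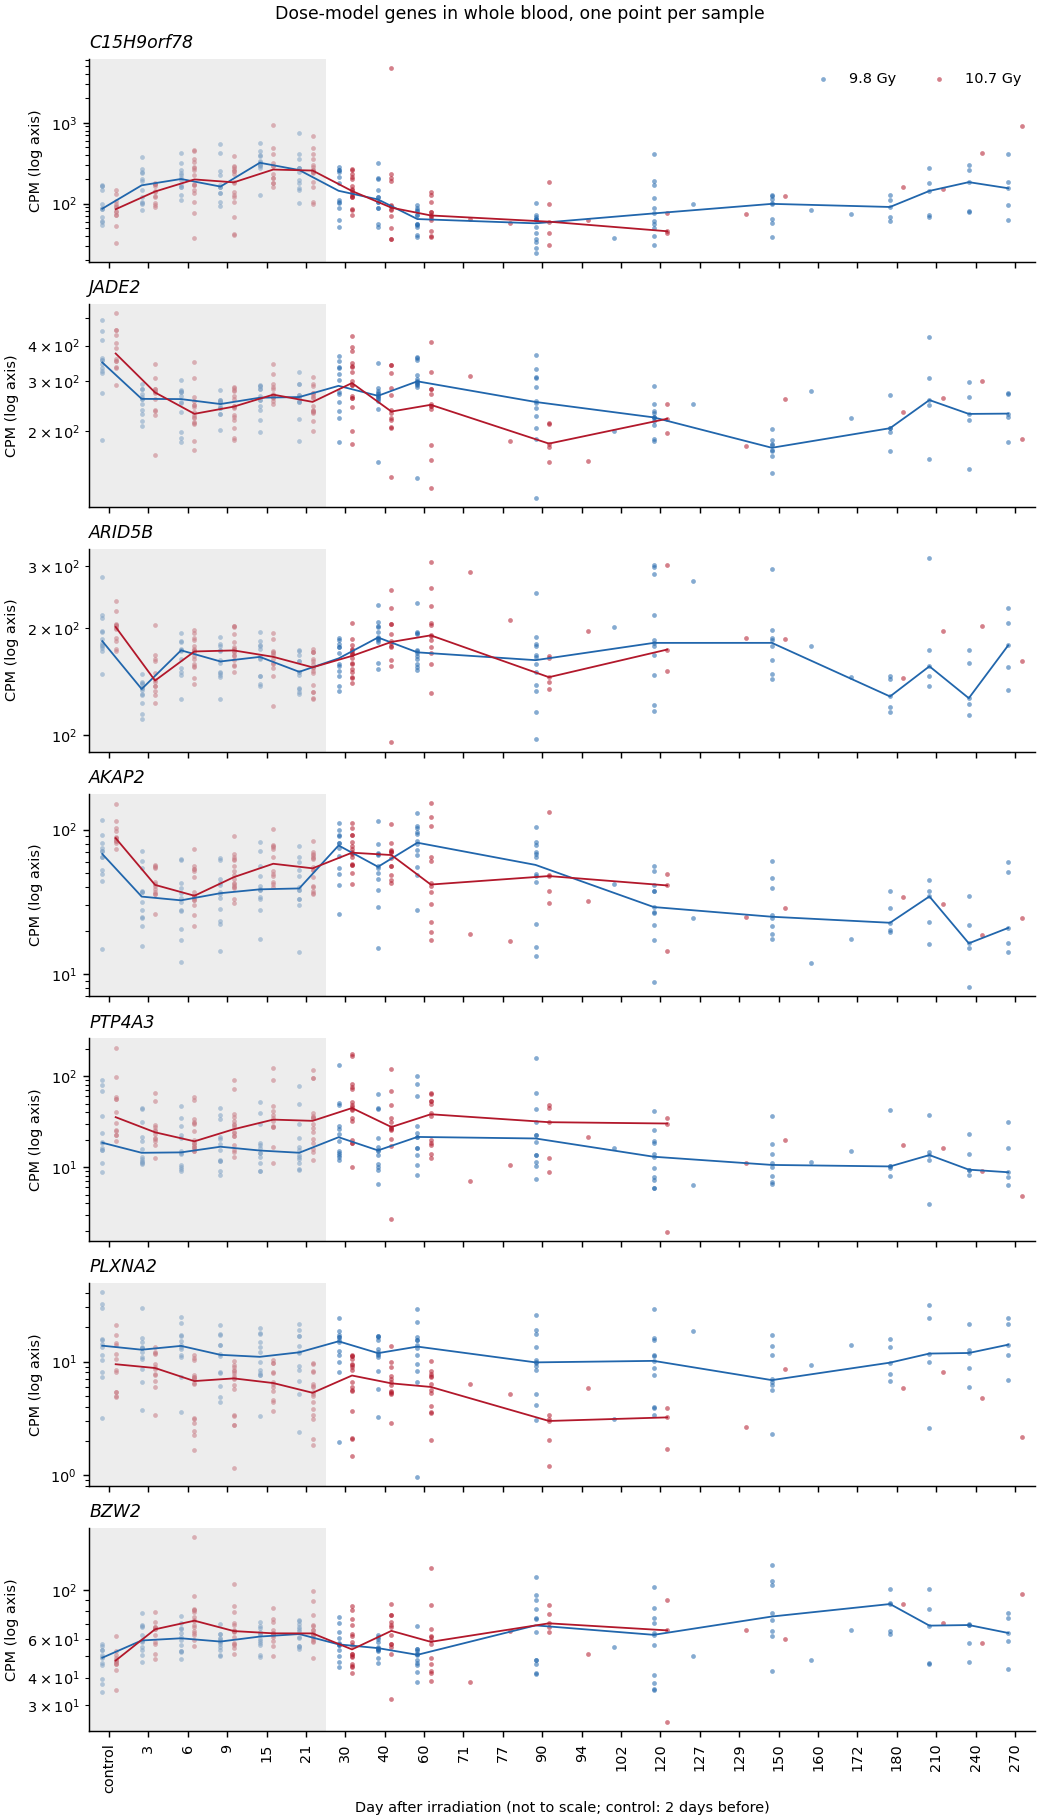
CPM (log axis) of each of the 7 genes in every sample, by day after irradiation (days not to scale), for 9.8 Gy (blue) and 10.7 Gy (red). Lines join medians of days with at least 3 animals, and the grey area marks the samples that chose the genes. At 9.8 Gy, AKAP2 and PTP4A3 medians are lower from Day 120 on than on Day 30 to 90, and C15H9orf78 passes through a low on Day 60 and 90. At 10.7 Gy the line ends on Day 120. There PTP4A3 has a median of 30.2 CPM against 31.2 on Day 90, and C15H9orf78 is lowest on Day 120 (45.6 CPM). PLXNA2 medians are lower at 10.7 Gy on each day with a line for both groups.

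The early pattern that chose the genes is described first. On Day 3 to 21, averaged per animal, C15H9orf78 was above the animal's own control in 24 of 24 animals, by 1.14 ± 0.58 on the log2 scale (mean ± SD, where 1 is a 2-fold difference). BZW2 was also above control in all 24, by 0.43 ± 0.21. AKAP2 (-0.81 ± 0.46), JADE2 (-0.52 ± 0.28) and ARID5B (-0.30 ± 0.22) were each below control in 23 of 24 animals. PTP4A3 (-0.51 ± 0.58) and PLXNA2 (-0.44 ± 0.56) were each below control in 17 of 24. The median over all tested genes was -0.03. By Day 30 to 60 these differences had narrowed in every gene. C15H9orf78 stood at 0.29 ± 0.99, with 12 animals above and 12 below control, and AKAP2 at -0.27 ± 0.50, with 16 below. JADE2 was then the lowest relative to control, at -0.43 ± 0.31 with 23 of 24 animals below. In the 6 animals sampled to Day 270, AKAP2 went from 0.06 ± 0.12 relative to control over Day 30 to 60 to -1.53 ± 0.29 over Day 180 to 270, and PTP4A3 from 0.05 ± 0.54 to -1.37 ± 0.55. In the same animals C15H9orf78 went from 0.16 ± 0.63 to 0.60 ± 0.82, BZW2 from 0.22 ± 0.24 to 0.61 ± 0.23 and JADE2 from -0.29 ± 0.22 to -0.63 ± 0.26.

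The change after Day 21 was tested in each animal against its own Day 30 sample, by edgeR's quasi-likelihood test with a block for the animal. P-values were adjusted over all tested genes by the Benjamini-Hochberg method, and calls needed an adjusted p no higher than 0.05 together with a 1.5-fold change or more. On Day 40, 0 of the 7 genes were called (24 animals, 4.96% of all genes called). Day 60 had 1 (24 animals, 3.00% of all genes) and Day 90 had 1 (17 animals, 4.27%). The count was 3 for Day 120 (14 animals, 24.4% of all genes), 4 for Day 150 (9 animals, 19.3%), and 2 over Day 180 to 270 (6 animals, 2.86%). All calls were toward lower levels. Day 120 and 150 shifted the whole blood profile, with a median log2 fold change over all genes of -0.19 on both days, so a member's change there is to be read relative to that shift. The shift depended on the scaling. With TMM scaling the medians were -0.10 and -0.11, and with DESeq2 -0.07 and -0.13. Of the calls over all genes on Day 120, 1413 of 3362 were toward higher levels with upper quartile scaling, against 55.7% with TMM scaling and 57.7% with DESeq2. On Day 150 these were 1118 of 2660, against 54.9% and 44.6%. These 6 comparisons share their Day 30 samples and are not independent of each other.

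**Figure D2:**
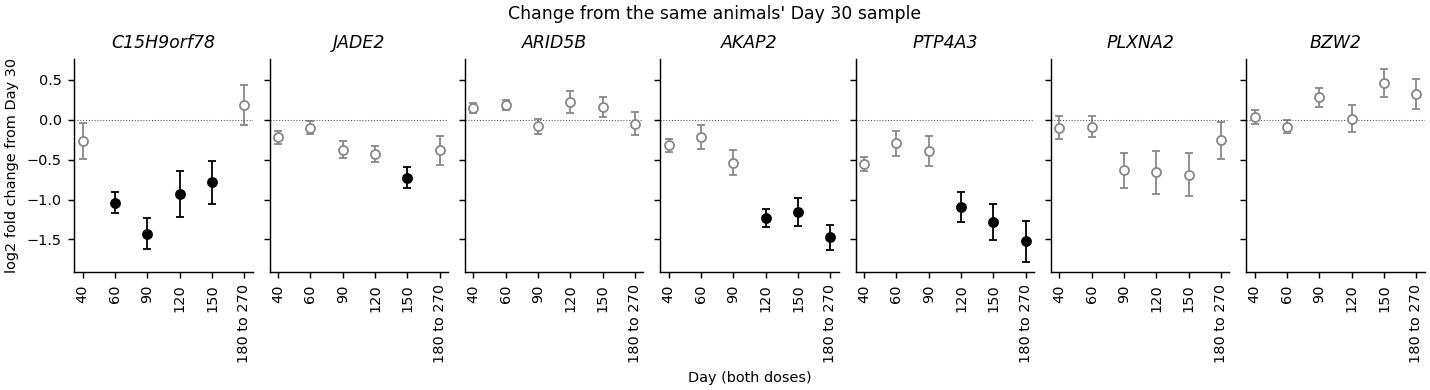
Log2 fold change from the Day 30 sample of the same animals (error bars, SE derived from the edgeR test) for the 7 genes. Days are 40, 60, 90, 120 and 150 and Day 180 to 270. Filled points passed both thresholds. C15H9orf78 is filled from Day 60 to 150, AKAP2 and PTP4A3 from Day 120 to the end, and JADE2 on Day 150 only.

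AKAP2, the kinase anchor, fell late. Its level was 26.1 to 111.5 CPM (median 71.7) in the 28 animals of Day 30 and 17.3 to 153 (median 65.4) on Day 60. On Day 120 it was 8.85 to 55.8 CPM (median 33.3) and on Day 150 17.4 to 60.2 (median 25.5). Day 30 and the later days overlapped as groups, but every animal was below its own Day 30 sample, 14 of 14 on Day 120 and 9 of 9 on Day 150. The log2 fold change was -1.23 ± 0.12 on Day 120 (SE, edgeR adjusted p = 2.588e-06) and -1.15 ± 0.18 on Day 150 (edgeR adjusted p = 0.0006631). Earlier days showed less. On Day 40, 19 of 24 animals were lower, by -0.32 ± 0.08 (edgeR adjusted p = 0.003169), and on Day 90 12 of 17, by -0.54 ± 0.16 (edgeR adjusted p = 0.03712). Both passed the p threshold and stayed under the fold threshold. On Day 60 the value was -0.22 ± 0.15, with 11 of 24 animals lower (edgeR adjusted p = 0.5342).

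AKAP2 stayed low in the animals followed longest. In the 6 animals sampled to Day 270 it ran from 49.2 to 91.3 CPM (median 77.6) on Day 30, which was near the 44.1 to 115.8 (median 75.7) of their control samples. The same animals had 19.5 to 37.7 CPM (median 25.7) on Day 180, 8.11 to 34.5 (median 17.4) on Day 240 and 14.2 to 59.5 (median 22.6) on Day 270. All 6 were below Day 30 over Day 180 to 270 as a whole, by -1.47 ± 0.15 (edgeR adjusted p = 0.002184). The values on Day 180, 210 and 240 did not overlap those of Day 30. Those of Day 120, 150 and 270 did, with at most 55.8, 60.2 and 59.5 CPM. The share of all genes without overlap on such days was not computed.

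PTP4A3, the PRL-3 phosphatase, fell on the same days. It ranged widely between animals, from 10.0 to 174 CPM (median 33.3) on Day 30. The range was 1.94 to 41.6 (median 13.6) on Day 120 and 6.51 to 36.7 (median 11.2) on Day 150. The groups overlapped, yet 13 of 14 animals were below their own Day 30 value on Day 120 and 9 of 9 on Day 150. The log2 fold change was -1.09 ± 0.19 on Day 120 (edgeR adjusted p = 0.0002963) and -1.28 ± 0.23 on Day 150 (edgeR adjusted p = 0.001487). An earlier dip on Day 40, lower in 22 of 24 animals by -0.55 ± 0.09 (edgeR adjusted p = 7.115e-05), missed the fold threshold, and on Day 60 14 of 24 animals were lower, at -0.30 ± 0.16 (edgeR adjusted p = 0.3764). In the 6 animals followed to Day 270, levels went from 13.0 to 133.4 CPM (median 38.4) on Day 30 to 8.12 to 22.97 (median 9.38) on Day 240 and 4.77 to 31.1 (median 8.29) on Day 270. The fall over Day 180 to 270 was -1.52 ± 0.26 (edgeR adjusted p = 0.01186), but it was -1.37 with an adjusted p of 0.05482 without the animal B1503, and -1.82 with an adjusted p of 0.08441 without the block.

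**Figure D3:**
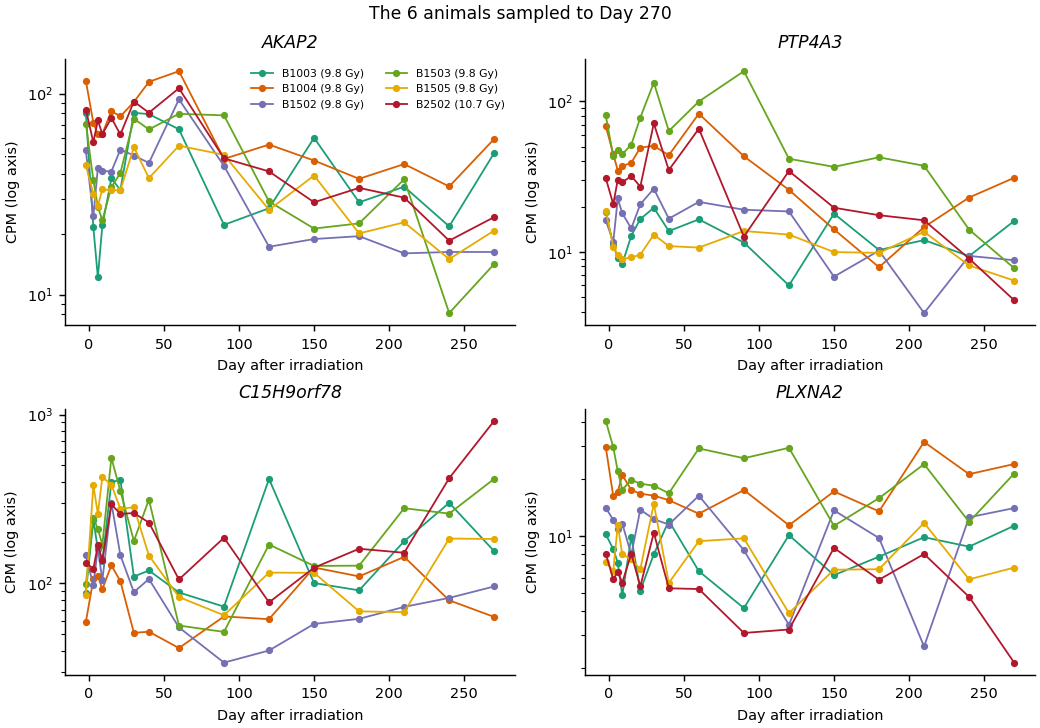
CPM (log axis) of AKAP2, PTP4A3, C15H9orf78 and PLXNA2 against day after irradiation in the 6 animals sampled to Day 270 (5 at 9.8 Gy and B2502 at 10.7 Gy), each line 1 animal. AKAP2 is below its Day 30 level in all 6 lines from Day 120 to 270. C15H9orf78 is higher after Day 90 in the median, though not steadily in each line, and reaches 918 CPM in B2502. PLXNA2 keeps its spread between animals.

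B cell markers moved on the same days as AKAP2 and PTP4A3. All 9 of the 9 B cell markers were called lower than at Day 30 for Day 120 (median log2 fold change -1.44), Day 150 (-2.15) and Day 180 to 270 (-1.98), and 0 of 9 were called on Day 40, 60 and 90 by the same test. Their summed level had a median of 1536 CPM (368 to 2676) in control samples, 1035 (311 to 2516) on Day 30, and 944 (236.3 to 2706) on Day 60. By Day 120 it was 369 CPM (at most 755), and by Day 270 307 CPM (at most 997). Markers of other cell types were called too. On Day 120, where 24.4% of all genes were called, 5 of 7 T cell and 7 of 11 erythroid markers were called lower. The 2 of 8 cytotoxic lymphocyte markers called lower were near that share. Called higher were 7 of 8 neutrophil markers, 4 of 6 monocyte markers (with 1 lower) and 5 of 6 glucocorticoid response genes. After subtraction of each animal's mean, over the 148 samples after Day 21, the correlation with the summed B cell markers was 0.88 for AKAP2 and 0.89 for PTP4A3. It was 0.67 for JADE2. AKAP2 also correlated with the summed T cell (0.58), monocyte (-0.72) and neutrophil (-0.71) markers, and PTP4A3 with the same sums at 0.74, -0.66 and -0.64. These points share libraries and animals, so the values are descriptive. The part of these cells in the fall of the genes was not tested.

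**Figure D4:**
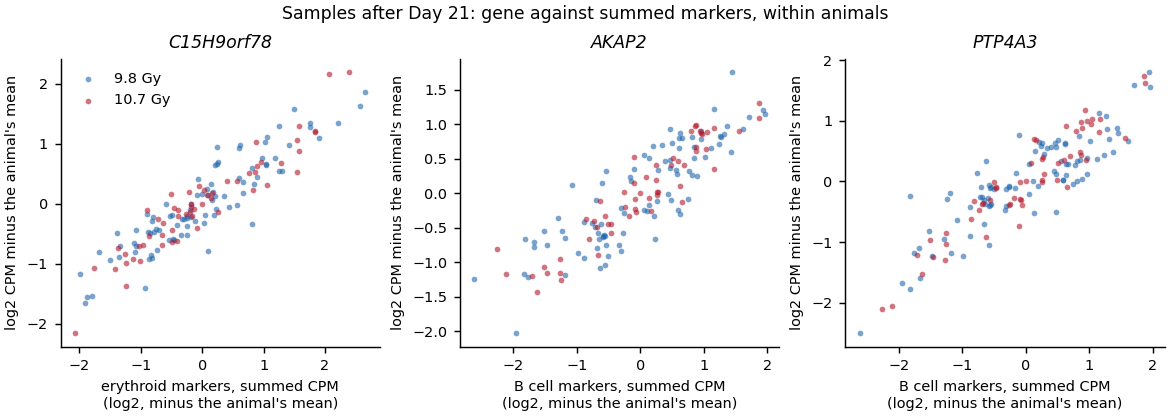
Each sample after Day 21 as its log2 CPM minus the mean of its animal, for C15H9orf78 against the summed erythroid markers and for AKAP2 and PTP4A3 against the summed B cell markers (log2, minus the animal's mean). Points rise together along a line in each panel, with correlations of 0.92, 0.88 and 0.89 over 148 samples of 28 animals.

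C15H9orf78, the spliceosome-associated gene, showed a fall that ended. It ranged from 32.4 to 169 CPM (median 86.7) in control samples and from 37.97 to 938 (median 210) on Day 3 to 21. On Day 30 it stood at 50.95 to 283 (median 143), on Day 60 at 38.9 to 139 (median 71.4) and on Day 90 at 24.8 to 186 (median 59.8). Nearly every animal had dropped, 23 of 24 on Day 60 and 16 of 17 on Day 90. The log2 fold change from Day 30 was -1.04 ± 0.13 on Day 60 (edgeR adjusted p = 1.307e-06) and -1.43 ± 0.19 on Day 90 (edgeR adjusted p = 6.822e-05). Over both doses Day 120 showed less, at -0.93 ± 0.28 with 11 of 14 animals lower (edgeR adjusted p = 0.01422), and so did Day 150, at -0.78 ± 0.27 with 8 of 9 lower (edgeR adjusted p = 0.04413). In HD alone Day 120 did not show less, with a mean log2 change of -1.86 in 3 animals against -1.29 in 5 on Day 90. The Day 120 call was lost in LD animals alone (-0.65, edgeR adjusted p = 0.1142) and without the block (-0.66, edgeR adjusted p = 0.1282). The Day 150 call was lost in LD animals alone, with TMM scaling and on the deposited log2 values, with adjusted p-values of 0.07179 to 0.08722.

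In the last months C15H9orf78 was near its Day 30 level again. Over Day 180 to 270 the change from Day 30 was 0.19 ± 0.25, with 2 of 6 animals lower (edgeR adjusted p = 0.6779). The 6 animals spanned 61.7 to 160 CPM (median 100) on Day 180, 79.4 to 420 (median 222) on Day 240 and 63.3 to 918 (median 169) on Day 270. The highest value of the late samples belonged to B2502, which had 160, 152, 420 and 918 CPM on Day 180, 210, 240 and 270.

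Erythroid markers, such as the hemoglobin genes and ALAS2, moved with C15H9orf78. On Day 40, 7 of 11 markers were called lower than at Day 30 and 2 higher (median log2 fold change -1.03), while C15H9orf78 was not called, at -0.27 ± 0.22 with 16 of 24 animals lower (edgeR adjusted p = 0.4176). Of the 11 markers, 9 were called lower by Day 60 (median log2 fold change -1.62), and again 9 for Day 90 (-1.96). The number was 7 for Day 120 (-1.34), 6 for Day 150 (-0.97) and 0 over Day 180 to 270 (median 0.21). Their summed level had a median of 6446 CPM in control samples, was 25334 CPM on Day 15, and was 18884 CPM on Day 30. It was 4328 CPM by Day 90 and 15158 CPM by Day 270. In B2502 it was 50648 CPM on Day 240 and 90888 on Day 270, the second highest of all samples. The highest was the Day 40 library of B2007, and this library also held the highest C15H9orf78 value, 4704 CPM, against 234.9 CPM in the same animal on Day 30. Within animals, the correlation of C15H9orf78 with the erythroid sum was 0.92 over 148 samples. The part of red cell precursors in the course of this gene was not tested.

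JADE2, of the histone acetyltransferase complex, fell by a smaller amount. It ranged from 180 to 432 CPM (median 295) on Day 30, 116.7 to 372 (median 226.8) on Day 90, 185 to 289 (median 223.1) on Day 120 and 142 to 260 (median 178) on Day 150. The ranges overlapped on all these days. Within animals, 15 of 17 were lower on Day 90 (-0.38 ± 0.11, edgeR adjusted p = 0.03194), 13 of 14 on Day 120 (-0.43 ± 0.10, edgeR adjusted p = 0.003503) and 9 of 9 on Day 150 (-0.72 ± 0.13, edgeR adjusted p = 0.00178). Day 150 alone reached the fold threshold. Over Day 180 to 270 the change was -0.38 ± 0.18, with 4 of 6 animals lower (edgeR adjusted p = 0.2555). Relative to the control samples, at 185 to 521 CPM (median 355), JADE2 was lower in 6 of 6 animals over Day 180 to 270, by -0.63 ± 0.26.

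ARID5B, the partner of PHF2, passed no test of change. Its levels were 133.7 to 207.1 CPM (median 167) on Day 30, 131.4 to 308 (median 181) on Day 60 and 117.5 to 302 (median 180) on Day 120. The spread between animals widened after Day 30, upward more than downward. The log2 fold change was 0.15 ± 0.07 on Day 40 with 20 of 24 animals higher (edgeR adjusted p = 0.09816) and 0.18 ± 0.06 on Day 60 with 18 of 24 higher (edgeR adjusted p = 0.1195). Without B2007, whose Day 40 library had the lowest ARID5B value of all samples (95.6 CPM), the Day 40 value was 0.19 ± 0.05 (edgeR adjusted p = 0.007256), still under the fold threshold. Over the samples after Day 21, ARID5B correlated within animals with the summed glucocorticoid response genes at 0.51 and with the summed T cell markers at -0.44. The part of dexamethasone was not tested.

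BZW2, the regulator of translation start, was above control and passed no test of change after Day 30. It ranged from 34.4 to 62.1 CPM (median 48.03) in control samples, 42.2 to 84.4 (median 56.5) on Day 30, 41.4 to 114.4 (median 70.7) on Day 90 and 42.8 to 130 (median 72.9) on Day 150. On Day 90 and 150 the upper end of the range was above that of Day 30, and the lower end was close to it. The log2 fold change from Day 30 was 0.28 ± 0.12 on Day 90 with 10 of 17 animals higher (edgeR adjusted p = 0.1595), 0.46 ± 0.18 on Day 150 with 7 of 9 higher (edgeR adjusted p = 0.06669) and 0.32 ± 0.18 over Day 180 to 270 with 4 of 6 higher (edgeR adjusted p = 0.3397). In the 6 animals followed longest, BZW2 was 37.3 to 53.3 CPM (median 46.1) before irradiation and 62.9 to 101.4 (median 86.6) on Day 180. Later medians were lower, at 70.1 CPM on Day 210 and 63.5 on Day 240. By Day 270 it was 43.7 to 95.6 (median 69.4). Control samples entered the choice of BZW2, and in these animals they were of series A while the Day 180 libraries were of series C.

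PLXNA2, the semaphorin receptor, was not called over time and differed between the dose groups. Its fold change from Day 30 reached -0.63 ± 0.22 on Day 90 (11 of 17 animals lower, edgeR adjusted p = 0.08071), -0.66 ± 0.27 on Day 120 (9 of 14, edgeR adjusted p = 0.05872) and -0.69 ± 0.27 on Day 150 (7 of 9, edgeR adjusted p = 0.07069). With DESeq2 the Day 90 change was -0.63 with an adjusted p of 0.02688. Over Day 180 to 270 it was -0.26 ± 0.23 (edgeR adjusted p = 0.5283).

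Whether the 7 genes still separated the doses after Day 21 was tested by comparing HD with LD, without covariates. The animals are those whose Day 3 to 21 samples chose the genes, so a lasting difference between the animals carries over. These comparisons are thus not independent of that choice. Of the 7, 0 were called on Day 30 (28 animals, 0.00% of all genes called, 1117 genes at an unadjusted p under 0.05, 0 calls with DESeq2) and 0 on Day 40 (24 animals, 0.00% of all genes, 2142 genes at an unadjusted p under 0.05, 61 genes called with DESeq2). On Day 60 1 was called (24 animals, 18.3% of all genes), and over Day 30 to 60, with the counts of each animal summed, 1 (28 animals, 2.96%). In both cases it was PLXNA2.

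PLXNA2 was lower in HD. On Day 30 it ranged from 1.94 to 24.4 CPM (median 15.1) in LD and from 1.46 to 11.4 (median 7.52) in HD. On Day 60 the LD values were 0.96 to 29.1 CPM (median 13.5) and the HD values 2.01 to 10.2 (median 5.96). The groups overlapped on these days, through the LD animal B1504 in particular, but 16 of 16 HD animals lay below the LD median on Day 30, 11 of 12 on Day 40 and 12 of 12 on Day 60. The HD minus LD difference was -0.97 ± 0.28 on Day 30 (edgeR adjusted p = 0.5903, unadjusted 0.001601), -0.75 ± 0.24 on Day 40 (edgeR adjusted p = 0.2382) and -1.18 ± 0.31 on Day 60 (edgeR adjusted p = 0.007084). Summed over Day 30 to 60 it was -0.92 ± 0.22 (edgeR adjusted p = 0.007071). On Day 60 the series B libraries were all of LD animals, so dose and library series are partly confounded there. The estimates of the 3 days lie within their errors of each other, and the change from Day 30 to 60 differed between doses by 0.06 ± 0.27 (edgeR adjusted p = 0.8998).

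The PLXNA2 difference was present in the same direction before any dose was given. Control values were 3.19 to 40.7 CPM (median 13.8) in animals later given 9.8 Gy and 4.83 to 21.0 (median 9.46) in those later given 10.7 Gy, and 8 of 12 of the latter lay below the median of the former. The difference was -0.68 ± 0.33 (edgeR adjusted p = 0.5779, unadjusted 0.04716, 24 animals). In this comparison 0 of the 7 genes were called and 0.00% of all genes, with 1160 genes at an unadjusted p under 0.05 and 8 genes called with DESeq2. Measured as the change from each animal's own control, with the animal as a block, the dose difference of PLXNA2 was -0.37 ± 0.33 on Day 60 (21 animals, edgeR adjusted p = 0.4105) and -0.24 ± 0.25 over Day 30 to 60 (24 animals, edgeR adjusted p = 0.612), and was not called. A difference made by the dose and one that was there before it cannot be told apart from the level alone. The LD control libraries were all of series A, and the 4 control libraries of series C were all HD. Dose and library series are thus partly confounded in the fits that use control samples.

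On later days PLXNA2 kept this order in fewer animals. On Day 90 the 5 HD animals had 3.39, 3.08, 1.19, 2.02 and 2.99 CPM, and the 12 LD animals 3.07 to 25.8 (median 9.82). On Day 120 the 3 HD animals had 3.21, 3.88 and 1.70 CPM. All 5 and all 3 lay below the LD median of their day. These HD libraries were all of series C, and the series B libraries of both days were all LD. On each of the 5 days from Day 30 to 120 with at least 3 animals per group, the HD mean was the lower one, with log2 differences from -0.71 to -1.91. The difference between doses in the change from Day 30 to 90 was -1.06 ± 0.46 (17 animals, edgeR adjusted p = 0.165, unadjusted 0.03021). At Day 30 to 60 the cytotoxic lymphocyte sum was 382 to 1940 CPM (median 1209) in LD and 282 to 1661 (median 1051) in HD samples, and 0 of its 8 markers were called between the doses over Day 30 to 60. On Day 60, where PLXNA2 and 18.3% of all genes were called, 2 of the 8 were lower in HD (median -0.45). Within animals PLXNA2 correlated with this sum at 0.57.

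**Figure D5:**
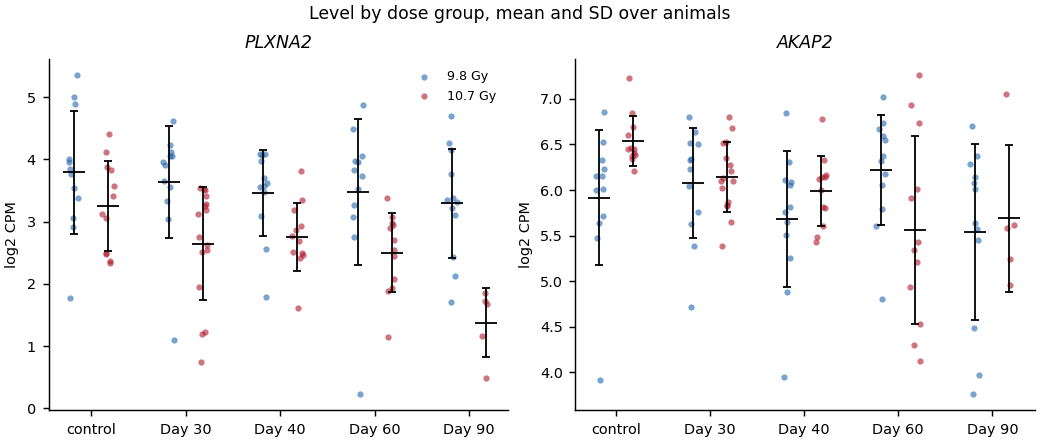
Log2 CPM of PLXNA2 (left) and AKAP2 (right) in each animal before irradiation and on Day 30, 40, 60 and 90, at 9.8 Gy (blue) and 10.7 Gy (red), with the mean and SD over animals in black. PLXNA2 means are lower at 10.7 Gy in all 5 columns including the control. AKAP2 is higher before irradiation and lower on Day 60 in the 10.7 Gy group.

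AKAP2 was not called between doses in its level on any day tested. Before irradiation it was 14.8 to 115.8 CPM (median 67.7) in LD and 73.6 to 150 (median 87.2) in HD animals, a difference of 0.51 ± 0.19 (edgeR adjusted p = 0.5068, unadjusted 0.01378). On Day 60 it was 27.7 to 129 (median 81.1) in LD and 17.3 to 153 (median 41.6) in HD, a difference of -0.42 ± 0.31 (edgeR adjusted p = 0.3106). HD values on Day 60 were the more dispersed, reaching both the lowest and the highest value of that day. As the change from own control, Day 60 gave 0.31 ± 0.35 (SD) in LD, with 2 of 12 animals lower, and -1.17 ± 1.03 in HD, with 7 of 9 lower. The difference between these changes was -1.46 ± 0.29 on Day 60 (edgeR adjusted p = 0.0006636) and -0.62 ± 0.13 over Day 30 to 60 (edgeR adjusted p = 0.002173). Control samples trained the model that chose AKAP2, so this is not an independent test. Dose and library series are also partly confounded in it. With Day 30 in place of the control, the difference between doses in the change to Day 60 was -0.76 ± 0.27 (24 animals, edgeR adjusted p = 0.07209).

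In that comparison of the change from Day 30 to 60 between doses, 0 of the 7 genes and 6.60% of all genes were called, and 1439 genes in all were called with DESeq2 in place of 907. For the change from Day 30 to 90, 0 of the 7 genes and 0.00% of all genes were called, with 3330 genes at an unadjusted p under 0.05. DESeq2 called 994 genes there, among them PTP4A3 (-1.003, DESeq2 adjusted p = 0.0475) and JADE2 (-0.59, DESeq2 adjusted p = 0.02647), whose edgeR values were -1.06 ± 0.35 (edgeR adjusted p = 0.08981) and -0.65 ± 0.19 (edgeR adjusted p = 0.07858). Among the markers, 4 of 9 B cell genes were called lower at 10.7 Gy in the Day 30 to 60 comparison (median -0.97) and 2 of 8 neutrophil genes higher (median 1.37). On Day 60 itself, 18.3% of all genes were called between the doses. Of the markers, 7 of 8 neutrophil and 6 of 6 monocyte markers and 3 of 6 glucocorticoid response genes were called higher in HD. Of the T cell markers 2 of 7 were called lower, and of the erythroid markers 3 of 11 higher and 2 lower. The summed neutrophil markers had a median of 1671 CPM (523 to 5158) in LD and 6213 (2156 to 17617) in HD. The part of these cells in the Day 60 values of AKAP2 and PLXNA2 was not tested.

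PTP4A3 was higher in HD without passing the test. On Day 30 it was 12.1 to 133.4 CPM (median 21.3) in LD and 10.0 to 174 (median 44.6) in HD. The log2 difference was 0.81 ± 0.40 on Day 30 (edgeR adjusted p = 0.6085), 0.15 ± 0.38 on Day 60 (edgeR adjusted p = 0.7964) and 0.66 ± 0.38 over Day 30 to 60 (edgeR adjusted p = 0.2133). Before irradiation it was 0.71 ± 0.43 (edgeR adjusted p = 0.6477). For C15H9orf78, the Day 40 library of B2007 decided the estimate. The Day 40 difference was 1.88 ± 0.72 (edgeR adjusted p = 0.2558) and was -0.32 ± 0.33 (edgeR adjusted p = 0.6577) without B2007, and over Day 30 to 60 the values were 0.79 ± 0.41 (edgeR adjusted p = 0.1754) and 0.02 ± 0.21 (edgeR adjusted p = 0.9491). JADE2, ARID5B and BZW2 differed between doses by -0.26 to 0.29 on Day 30, 40 and 60, with no call.

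Females and males did not differ in a call for any of the 7 genes over Day 30 to 60, with dose as a covariate (0 of 7, 28 animals, 0.0436% of all genes called by edgeR). PLXNA2 had an unadjusted p of 0.03127 at -0.48 ± 0.21 (edgeR adjusted p = 0.9173), and 0 of the 7 were called with DESeq2. The estimate for C15H9orf78 turned from -0.33 ± 0.42 to 0.46 ± 0.20 (edgeR adjusted p = 0.5884) without B2007.

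Some of the genes had more of their variance between animals than the median gene. After Day 21, animals accounted for 66.01% of the variance of log2 CPM in PLXNA2 and 56.5% in PTP4A3, against a median of 28.9% over all genes. The share was 44.1% in C15H9orf78, 36.9% in AKAP2, 31.02% in ARID5B, 26.9% in JADE2 and 17.6% in BZW2. Dose and day were left in, so these shares include differences between the dose groups. Animals that left the study early contribute only early days. The control level of an animal was set beside its level on Day 30 to 60 in 24 animals, as a description without p-values, because the control samples entered the choice of the genes. For PTP4A3, Pearson's r was 0.80 and Spearman's rho 0.80, and r was 0.74 without the 2 animals farthest from the median. It was 0.92 within LD and 0.66 within HD (0.86 and 0.34 without the 2 farthest).

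For PLXNA2, r was 0.71, rho 0.64 and r without the 2 farthest 0.55. Within LD r was 0.73 and rho 0.57, and within HD r was 0.56 and rho 0.53. Without the 2 farthest, r was 0.23 within LD and 0.20 within HD. Leaving them out also narrows the range of control levels. How far the relation within doses rests on those animals is thus not settled by these values. For AKAP2, r was 0.65 and rho 0.34, with r of 0.34 without the 2 farthest. It was 0.95 within LD and 0.41 within HD (0.86 and -0.19 without the 2 farthest), so the value within HD turned sign. For BZW2, r was 0.48 over both doses, 0.09 within LD and 0.81 within HD (0.24 and 0.71 without the 2 farthest). For C15H9orf78 it was 0.14 over both doses, 0.65 within LD and -0.07 within HD (0.52 and -0.30 without the 2 farthest). Over both doses r was 0.48 for JADE2, which was 0.08 without the 2 farthest, and 0.26 for ARID5B.

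The genes whose course within animals after Day 21 was most like that of each member were listed by Pearson's r over the same 148 samples, as a description. For C15H9orf78 they were STRADB (0.95), FAM210B (0.94) and TMOD1 (0.92). For PTP4A3 they were CXCR5 (0.93), FCMR (0.91) and CD79A (0.91), and for AKAP2 VAV2 (0.90), PAX5 (0.89) and EBF1 (0.89). CD79A and PAX5 are on the B cell marker list. JADE2 was most like HIP1R (0.83), AHDC1 (0.83) and MPRIP (0.81), ARID5B most like NR2C2 (0.75), SLC9A7 (0.72) and ICK (0.71), and BZW2 most like SPTSSA (0.73), VMP1 (0.72) and TFEC (0.72). PLXNA2 had the weakest neighbours, KCNT1 (0.65), PRF1 (0.63, a cytotoxic lymphocyte marker) and COL5A3 (0.63). Among the members themselves, AKAP2 and PTP4A3 were the closest pair (0.80), followed by JADE2 with PTP4A3 (0.64) and with AKAP2 (0.60), and JADE2 ran opposite to BZW2 (-0.63).

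The families and partners of the 7 genes were examined on Day 120 against Day 30, where 24.4% of all genes were called. Of 21 other plexin and semaphorin genes tested, 3 were higher and 5 lower. The largest were the transmembrane semaphorins SEMA6D (1.54 ± 0.36, edgeR adjusted p = 0.002705), SEMA6A (-1.25 ± 0.26, edgeR adjusted p = 0.001397) and SEMA6C (-1.02 ± 0.27, edgeR adjusted p = 0.006428), and the plexin PLXNC1 (1.40 ± 0.23, edgeR adjusted p = 0.0001937). Of 18 other genes for A-kinase anchors and protein kinase A subunits, 1 was higher and 3 lower, namely the anchors AKAP12 (-1.12) and AKAP1 (-0.82) and the regulatory subunit PRKAR1B (-0.93). Of 6 PRL phosphatase and CNNM genes, PTP4A1, a close relative of PTP4A3, was higher (0.78 ± 0.15, edgeR adjusted p = 0.0007857) and the magnesium transport gene CNNM2 lower (-0.62 ± 0.15, edgeR adjusted p = 0.003734).

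In the nucleus, 2 of 9 other JADE and HBO1 complex genes were lower, JADE3 (-0.66) and JADE1 (-0.64). Of 13 ARID family genes and PHF2, 2 were higher, ARID3A (0.69) and ARID4A (0.64). None of 7 spliceosome partner genes and none of 9 genes for translation start was called, with medians of -0.29 and -0.10. Of the 10 other genes of the dose model tested, 7 were lower and 0 higher (median -0.60), led by the chemokine receptor ACKR3 (-2.00 ± 0.31, edgeR adjusted p = 0.0001122), the transcriptional corepressor CBFA2T3 (-1.27), the vasohibin VASH1 (-1.19) and the actin-binding gene ABLIM1 (-0.84). These 10 were chosen by the study on samples of the same animals. In the dose comparison over Day 30 to 60, 2.96% of all genes were called. Of these lists, HD differed there from LD in AKAP5 (-0.72 ± 0.15, edgeR adjusted p = 0.003595), another anchor of protein kinase A. It also differed in LOC106995452, one of the dose model genes (1.12 ± 0.34, edgeR adjusted p = 0.02207), and in no other gene of these lists apart from PLXNA2. Whether the lists exceed the share over all genes was not tested.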

How the data were processed

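RNA-seq was made from whole blood of 28 rhesus macaques (rRNA-depleted stranded paired-end libraries). Per the labels' processing notes the authors used cutadapt 2.10, STAR 2.7.6a and Subread 2.0.1 with Mmul_10. The deposited table holds raw read counts per gene. A second deposited table holds log2 values, from which the authors had removed low counts before upper quartile scaling, and it was used as an alternative only. A gene was tested if 80% or more of the samples held 3 counts or more for it (13751 genes). Counts were scaled by upper quartile and tested with edgeR 4.0.16 in R 4.3.3 (quasi-likelihood, Benjamini-Hochberg over all tested genes), and calls needed an adjusted p no higher than 0.05 with a 1.5-fold change or more. CPM and log2 CPM used a prior count of 2. Groups and animals came from the labels; each animal was compared with itself where days were compared, since samples with the same number came from the same animal. Samples of an animal were summed where several days were pooled. SE was derived from the edgeR test, as the absolute log2 fold change divided by the square root of the F statistic. Coordinates came from the Mmul_10 annotation.

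The genes named are the 7 members, for each the 3 genes with a symbol not starting with LOC that had the highest correlation, and, of the family and partner lists, at most 4 a list that were called on Day 120 or between doses over Day 30 to 60. The members, lists and markers were chosen with earlier results of these data known. Alternatives were TMM scaling, DESeq2 1.42.0, no filter, the deposited log2 values with limma 3.58.1, sex as covariate, the change from own control, other library series, single doses and animals left out. Library series (A, B, C) were read from the library numbers in the labels, which do not say what they stand for. On simulated counts with 200 of 13751 genes changed 2-fold, edgeR recovered 86% for the dose difference over Day 30 to 60, 77.5% for Day 120, 54.5% for Day 180 to 270 and 29% for the difference between doses in the change to Day 90. Figures were drawn with Matplotlib 3.10.9.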

Additional observations from a re-analysis of the deposited data

Results flagged for a closer look

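Of the single samples, 3 lay far from the rest of their group by Dixon's test at the 95% level, among 42 groups of a gene, dose and day with 4 to 10 samples. Chance alone flags about 1 in 20 such groups. PTP4A3 was 42.5 CPM in the 9.8 Gy animal B1503 on Day 180, where the other 4 animals had at most 10.3 CPM. ARID5B was 294 CPM in the 9.8 Gy animal B1506 on Day 150, where the next of the 8 animals had 198.5 CPM. ARID5B was 316 CPM in the 9.8 Gy animal B1502 on Day 210, where the next of the 5 animals had 174 CPM.

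The change of AKAP2 from its own control differed between the dose groups, by -1.46 on Day 60 (10.7 Gy minus 9.8 Gy, log2, edgeR adjusted p = 0.0006636, 21 animals) and by -0.62 over Day 30 to 60 (edgeR adjusted p = 0.002173, 24 animals). On Day 60, AKAP2 was lower than control in 7 of 9 animals at 10.7 Gy and in 2 of 12 at 9.8 Gy. The control samples entered the choice of AKAP2, and most were of another library series than the later samples. The control samples of series C were all of 10.7 Gy animals, so dose and series are partly confounded here.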

How the results depend on the processing

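Of 872 values recomputed under an alternative, 849 kept their size or their side of the threshold, and no called value changed sign. Of 714 fold changes of the 7 genes, 698 stayed on their side of the threshold, and 48 of these, uncalled in both fits, had the other sign. With DESeq2, 2 of the 7 genes in place of 1 were called for Day 90, and 2 in place of 0 for the difference between doses in the change to Day 90. In the 3 animals at 10.7 Gy alone (added after seeing the data), 1 in place of 3 was called for Day 120 (AKAP2 -1.05, edgeR adjusted p = 0.3156, PTP4A3 -1.33, edgeR adjusted p = 0.2783), with fewer samples. The fits without B2007 were also added after seeing the data. Without the replicate block, 1 in place of 2 was called over Day 180 to 270, and the lowest and highest counts with each animal left out were 1 and 2. The own-control fits with the block ended the PLXNA2 dose calls (-0.37 and -0.24). The pairing by animal changed no other call than those given here and for C15H9orf78, PTP4A3 and AKAP2 in the report. In the 4 animals with control and later samples both in series C, all at 10.7 Gy, the Day 3 to 21 change was -1.12 for PLXNA2 and 0.72 for BZW2.

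Counts over all genes moved by more than 1.5 times as follows, and the cause was not tested. Day 90 had 359 in place of 587 in 9.8 Gy animals alone, and Day 120 had 37 in place of 3362 in 10.7 Gy animals alone. Day 180 to 270 had 393 calls (49.9% higher), 1179 with DESeq2 (65.2% higher), 673 without the filter, 177 without the block, 1075 in series C, and 79 to 915 with each animal left out, so its count over all genes depends on single animals. The Day 40 dose comparison had 0 calls, 61 with DESeq2, 5 against own control, 6 in series C and 2 without B2007. The Day 30 dose comparison had 1 without the filter, the comparison before irradiation 8 with DESeq2, the dose by time comparison 1439 (Day 60, 70.3% higher against 50.9%, and 68.5% with TMM scaling) and 994 (Day 90) with DESeq2 and 1 on Day 90 without B2001, and the sex comparison 10 with DESeq2 and 33 without the filter in place of 6. The share of calls toward higher levels in the Day 60 dose comparison was 50.7%, and 64.8% with TMM scaling and 67.5% with DESeq2. PLXNA2 had the fewest reads of the 7 genes, and fewer animals were sampled after Day 90.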
